A study of Homo sapiens and Mus musculus with 66 samples.

Results

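The windows described here are the 100 kb stretches of the genome that TSA-seq placed in a lamina-associated domain (LAD) of K562 cells and that lamin-B1 cTSA-seq did not. They were chosen by the measured calls of both methods: a window had to lie inside the deposited list of LADs from the published TSA-seq data and outside the list from cTSA-seq. Among the 30376 windows of hg19 chromosomes 1 to 22 and X, 1146 windows (114.6 Mb, 3.77%) met this rule, which is 11.0% of the 10439 windows in TSA-seq LADs. Another 9293 windows were called by both methods, 2948 by cTSA-seq without TSA-seq, and 16989 by neither. Since the difference between the K562 methods chose the windows, it is not itself a result. The lists hold calls without a signal, so no window can be said to lie near or far from a threshold.

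The nuclear lamina is a meshwork of lamins under the inner nuclear membrane, and LADs are the long, gene-poor and mostly silent chromosome segments that lie at or near it. Both methods begin with an antibody to a B-type lamin and a peroxidase, which turns a tyramide-biotin into a short-lived radical that attaches to nearby molecules. TSA-seq then purifies the biotinylated DNA, whereas cTSA-seq pulls down sheared chromatin on streptavidin, so that biotin on proteins is captured too. Many LADs are shared between cell types, while others differ, and those that differ tend to hold genes with cell type-restricted expression.

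K562 cells, a human leukemia line, were profiled in bulk by lamin-B1 cTSA-seq in 2 replicates, with pull-down and input libraries for both. The published TSA-seq LADs of K562 were called by the authors with the same 3-state model, and the list came from other experiments with another lamin antibody. In HCT116, a line from a human colorectal carcinoma, lamin-B1 cTSA-seq was performed on bulk cells and on 1000000, 200000 and 50000 cells. It was also performed on G1, S and G2 cells sorted from asynchronous cultures. For 90m G1 and 180m G1, mitotic cells were shaken off after a nocodazole block and harvested 90 min and 180 min after release. These cells were then sorted for G1 DNA content. The block lasted 16 h by the labels and another length by the methods. No genetic modification of either line is given. Each condition is represented by 1 list merged over its replicates, except that the labels give 1 pull-down for 1000000 cells, and no depth or replicate value comes with a list. The spread between replicates is therefore unknown, no test was run, and the differences below are differences between lists. The names K562 and HCT116 could not be checked against marker genes, because no expression values were used.

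The sequence of these windows was poor in GC and in CpG dinucleotides, the sites of DNA methylation. The first lines show, with CpG in capitals, the middle 200 bases of the windows with the lowest and the median GC content (32.7 and 36.9%), chosen among windows without gaps with 1 chromosome left out. They lie at chr5:104649900-104650099 in an intron of a non-coding gene and at chr4:68749900-68750099 in an intron of the non-coding gene UBA6-DT. The next lines show the middle of the 2 longest stretches, at chr6:68699900-68700099 in an intron of a non-coding gene and at chr1:192299900-192300099 in an intron of RGS21. All are from the plus strand of hg19, and each window's middle is an example of its base composition and not a site that was measured.
Lowest GC: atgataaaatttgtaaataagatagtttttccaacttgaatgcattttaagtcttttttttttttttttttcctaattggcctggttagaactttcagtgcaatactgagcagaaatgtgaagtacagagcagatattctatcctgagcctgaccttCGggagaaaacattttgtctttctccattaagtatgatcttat
Median GC: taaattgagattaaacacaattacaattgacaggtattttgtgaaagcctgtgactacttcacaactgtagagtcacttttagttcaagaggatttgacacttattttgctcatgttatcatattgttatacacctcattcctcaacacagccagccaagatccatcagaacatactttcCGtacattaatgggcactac
Longest stretch, chromosome 6: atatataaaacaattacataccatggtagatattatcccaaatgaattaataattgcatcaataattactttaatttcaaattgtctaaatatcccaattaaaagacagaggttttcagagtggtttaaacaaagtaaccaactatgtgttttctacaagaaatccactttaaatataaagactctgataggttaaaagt
Longest stretch, chromosome 1: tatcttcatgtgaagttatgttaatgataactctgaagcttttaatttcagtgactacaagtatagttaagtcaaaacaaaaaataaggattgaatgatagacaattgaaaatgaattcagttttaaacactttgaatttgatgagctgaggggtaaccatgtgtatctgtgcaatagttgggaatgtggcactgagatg
Each of the first 2 sequences held 1 CpG, and the middles of both longest stretches held 0.

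Promoters are shown for the first 4 coding genes of the longest stretch on chromosome 1, to set gene starts inside these windows beside their surroundings. Their 250 bases before the gene start were taken from the RefSeq table on GRCh38.p14 and found unchanged on the plus strand of hg19, at chr1:192127342-192127591 for RGS18, chr1:192285872-192286121 for RGS21, chr1:192544653-192544902 for RGS1 and chr1:192605027-192605276 for RGS13. RefSeq promoters were matched for 62 of the 83 coding genes with a symbol that start in the 10 longest stretches.
RGS18: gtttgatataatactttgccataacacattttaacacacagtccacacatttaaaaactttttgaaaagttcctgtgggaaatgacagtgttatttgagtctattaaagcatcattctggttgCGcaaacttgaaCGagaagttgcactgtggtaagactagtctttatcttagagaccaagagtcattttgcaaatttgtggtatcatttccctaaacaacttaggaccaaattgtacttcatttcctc
RGS21: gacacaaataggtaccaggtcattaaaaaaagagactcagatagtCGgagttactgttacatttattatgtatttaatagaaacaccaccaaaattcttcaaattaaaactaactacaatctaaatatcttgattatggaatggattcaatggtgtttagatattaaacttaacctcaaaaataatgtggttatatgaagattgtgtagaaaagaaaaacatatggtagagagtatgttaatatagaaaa
RGS1: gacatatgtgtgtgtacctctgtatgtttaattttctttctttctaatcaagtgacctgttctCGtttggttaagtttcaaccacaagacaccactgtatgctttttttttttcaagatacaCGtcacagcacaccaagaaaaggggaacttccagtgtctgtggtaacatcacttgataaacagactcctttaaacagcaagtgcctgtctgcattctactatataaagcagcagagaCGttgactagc
RGS13: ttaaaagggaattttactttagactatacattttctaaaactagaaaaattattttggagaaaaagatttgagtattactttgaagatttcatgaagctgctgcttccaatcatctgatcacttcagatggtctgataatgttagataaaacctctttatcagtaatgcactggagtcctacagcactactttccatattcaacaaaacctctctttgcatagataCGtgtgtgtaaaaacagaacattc
These promoters held 2, 1, 3 and 1 CpG and had GC contents of 34.8, 27.2, 39.2 and 32.0%. They were thus poor in CpG compared with the median of 14.0 CpG in the same 250 bases of all 417 coding genes other than olfactory receptors that start in the windows missed by cTSA-seq, read from hg19 at GENCODE gene starts.

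The 1146 windows formed 327 uninterrupted stretches, most of them short. The median stretch was 200 kb and the mean 350 kb, 103 stretches (31.5%) were a single window, 145 had 2 to 4 windows, and 64 had 5 to 9. The remaining 15 stretches reached 1 Mb or more and together held 206 windows. Stretches at a LAD border, which contain its first or its last window, numbered 193 (59.0%) and held 553 windows (48.3%). Inner stretches, with cTSA-seq calls of the same LAD on both sides, numbered 121 (37.0%) and held 543 windows (47.4%). The other 13 stretches, with 50 windows, were TSA-seq LADs without any cTSA-seq window. Border stretches had a median size of 200 kb (quartiles 100 and 400 kb) and 92 of them were single windows, whereas inner stretches had a median of 400 kb (quartiles 200 and 600 kb) and 8 were single windows. Outside the LAD, the window next to a border stretch was called by neither method in 192 of 193 cases.

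The share of TSA-seq windows that cTSA-seq did not call was highest at LAD ends. It was 29.1% of the 742 windows at an end, 16.2% of those 100 kb inside and 11.3% of those 200 kb inside. From 300 to 900 kb it lay between 6.94 and 9.55%, and at 1 Mb or more it was 9.35%, so the decline ended after the first few windows. Of the 373 TSA-seq LADs, 207 (55.5%) contained at least 1 such window, 19 were covered by them over more than 50% of their length, and 79 had an inner stretch, with up to 5 in 1 LAD. LADs of up to 500 kb lost the highest share of their windows, 24.0% of 150. The share was 6.96% in LADs of 500 kb to 1 Mb, 9.37% in LADs of up to 3 Mb, 12.1% in LADs of up to 6 Mb and 11.3% in longer ones. Of LADs of up to 500 kb, 35.7% had any such window, against 29.6% of LADs of 500 kb to 1 Mb and 79.5% of LADs over 6 Mb. A longer LAD has more windows in which one can occur. Except for those of 1300 and 700 kb, all LADs without any cTSA-seq window were in the class of up to 500 kb.

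**Figure D1:**
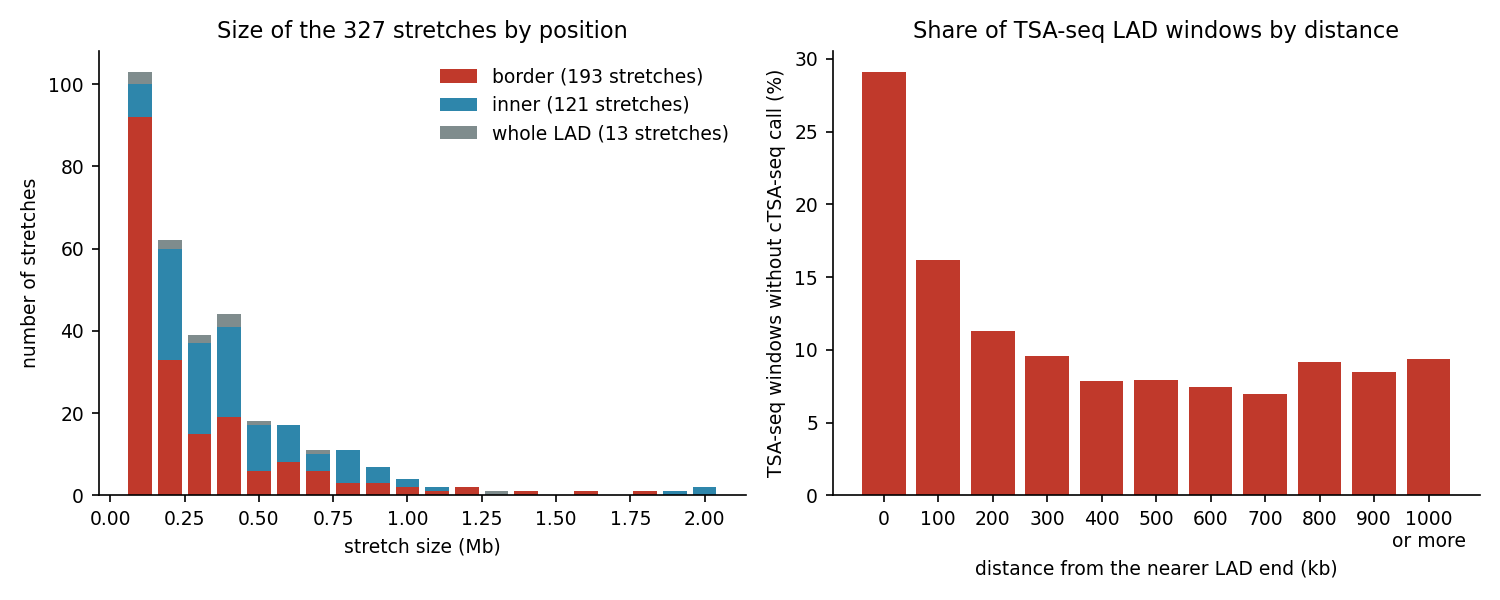
Left, number of stretches by size in Mb, with colours for border, inner and whole-LAD position; right, percentage of TSA-seq LAD windows without a cTSA-seq call against distance from the nearer LAD end in kb. Single windows at borders are the most frequent stretches (92), and the share falls from 29.1% at the LAD end to 9.55% at 300 kb.

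The 10 longest stretches held genes of very different roles. Both longest, of 2000 kb each, were inner stretches. That on chromosome 1 (191300001-193300000) lay in a LAD of 12200 kb and contained 10 coding gene starts, among them RGS18, RGS21, RGS1, RGS13 and RGS2, regulators that speed the inactivation of G proteins, and also CDC73, a subunit of the PAF1 transcription elongation complex, UCHL5, a proteasome-associated deubiquitinase, and RO60, an RNA-binding autoantigen. None of its windows was in any HCT116 list. The stretch on chromosome 6 (67700001-69700000) lay in a LAD of 6500 kb and contained the start of ADGRB3, an adhesion G protein-coupled receptor of neurons, and of 1 coding gene without a symbol. All of its windows were called in each HCT116 list except that of 90m G1, where none was. An inner stretch of 1900 kb on chromosome 13 (66300001-68200000) contained all of PCDH9, a protocadherin of cell adhesion, and was in no HCT116 list.

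Long stretches at borders differed in the same way. On chromosome 21 a stretch of 1800 kb (20700001-22500000) with the start of NCAM2, a neural cell adhesion molecule, was called whole in 7 HCT116 lists and not at all in the 90m G1 and 180m G1 lists. On chromosome 7, 1600 kb (16800001-18400000) with AHR, the aryl hydrocarbon receptor, the secreted or endoplasmic reticulum proteins AGR2 and AGR3, SNX13, PRPS1L1 and the histone deacetylase gene HDAC9 was in no HCT116 list. The same was true of 1400 kb on chromosome 1 (196300001-197700000) with the coagulation factor subunit F13B, the spindle protein ASPM and CRB1, a polarity protein of the retina. A pair of stretches of 1200 kb on chromosome 2 was also absent from the HCT116 lists. One (157100001-158300000) held NR4A2, GPD2, GALNT5 and ERMN, and the other (145700001-146900000) had no coding gene start. An inner stretch of 1100 kb on chromosome 2 (58200001-59300000) held FANCL, a ubiquitin ligase of DNA crosslink repair, and had 18.2% of its windows in the bulk HCT116 list.

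The chromosome 1 LAD that contains RGS18 had the most of these windows of any LAD, 47 of 122 (38.5%), in 2 border and 2 inner stretches. In the chromosome 6 LAD around ADGRB3, 23 of 65 windows (35.4%) were without a cTSA-seq call.

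**Figure D2:**
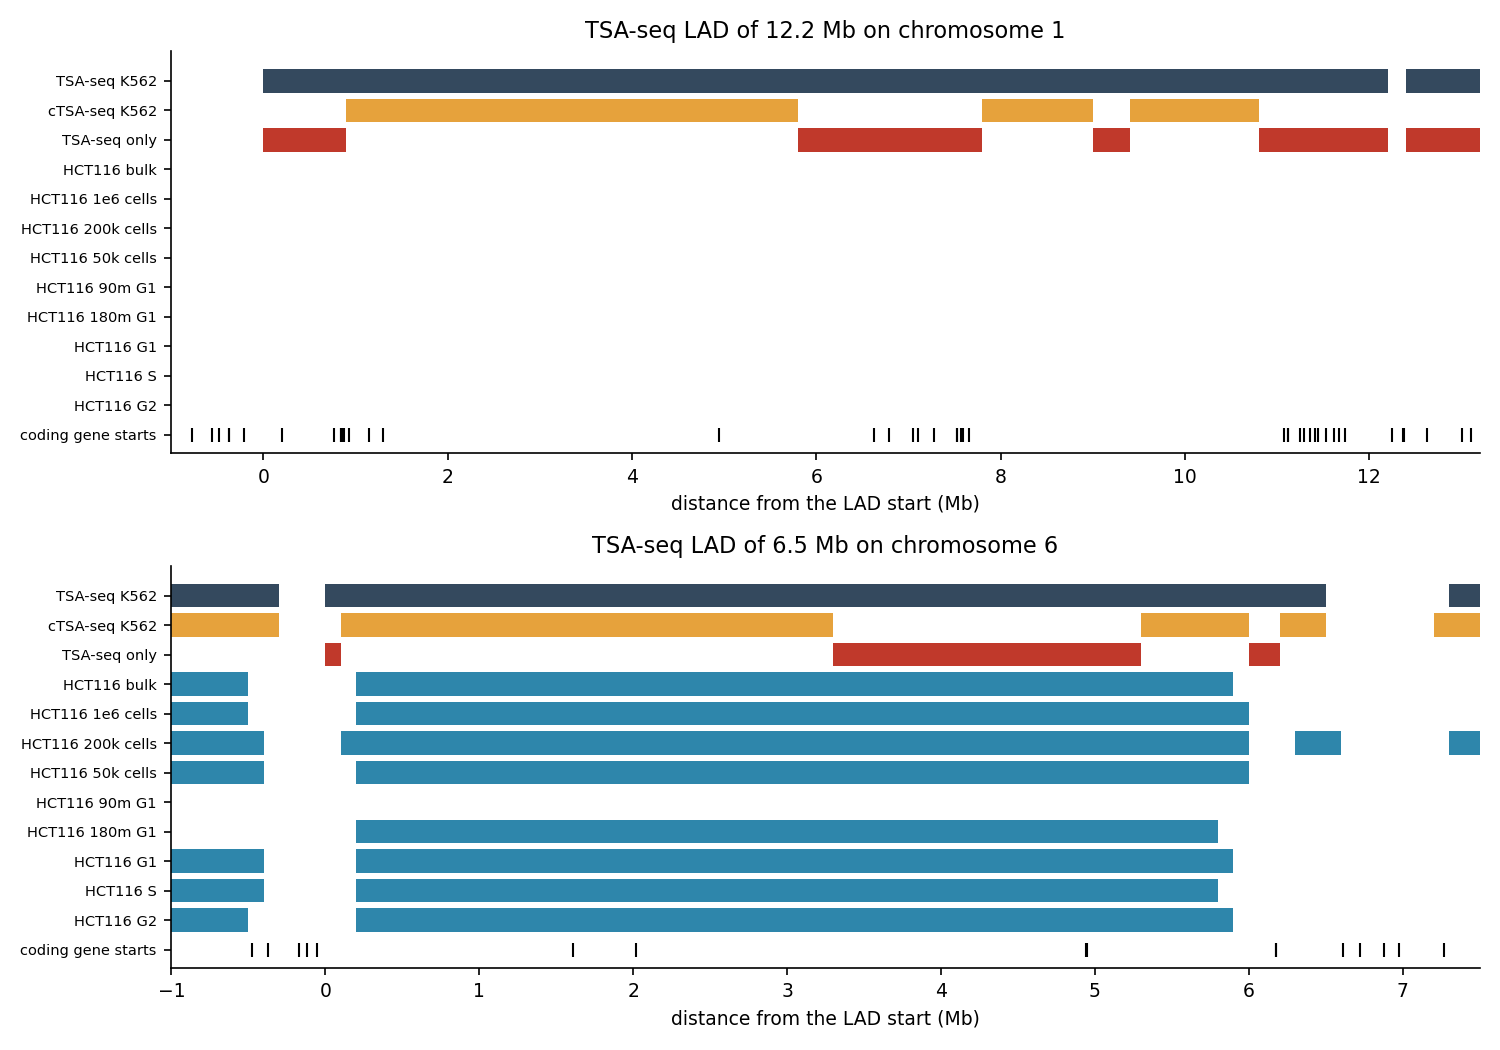
Maps of the LADs that hold both longest stretches, in Mb from the LAD start with 1 Mb on either side; each row is a list, blocks are called windows, the red row shows TSA-seq windows without a cTSA-seq call, and ticks are coding gene starts. The chromosome 1 LAD is empty in all 9 HCT116 lists, while the chromosome 6 stretch of 2000 kb is covered in 8 of them.

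Among TSA-seq LADs without any cTSA-seq window, the longest was 1300 kb near the end of chromosome 1 (247600001-248900000). It contained 45 olfactory receptor genes among its 49 coding gene starts. Olfactory receptors are the odorant-sensing G protein-coupled receptors of the nasal epithelium and lie in clusters. All windows of this LAD were called in 8 HCT116 lists, and 92.3% were called with 1000000 cells. The next longest, of 700 kb on X (123600001-124300000), lies within TENM1, a teneurin of neuronal contacts that had 84.5% of its length in these windows, and was called whole in 8 HCT116 lists. Of the remaining 11, 4 were on chromosome 9 between 22600001 and 30200000, with sizes of 400, 100, 100 and 100 kb, and 3 of these 4 were called whole in the bulk HCT116 list. The copy number of these 4 LADs in K562 was not examined here. Those on chromosome 10 (42300001-42600000), chromosome 16 (46300001-46500000) and chromosome 4 (49000001-49200000) were called in the bulk list and the lists of 1000000, 200000 and 50000 cells but in none of the 5 sorted lists. They are 300, 200 and 200 kb long, and gaps made up 35.0 and 42.9% of those on chromosomes 10 and 16. The other 4, on chromosome 4 (119800001-120300000), chromosome 1 (225100001-225500000), chromosome 2 (196500001-196900000) and chromosome 5 (108200001-108500000), were in no HCT116 list.

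GC content hardly separated the windows from other TSA-seq LAD windows. Their median was 36.9% (quartiles 35.7 and 37.9%, n = 1146 windows), against 36.6% (35.5 and 38.0%, n = 9293) where both methods called a LAD. Windows called by cTSA-seq alone had a median of 41.0%, and windows called by neither had 42.8%. The median density of CpG followed the same order, with 6.24 per kb in the windows missed by cTSA-seq, 5.92 with both methods, 8.34 with cTSA-seq alone and 11.2 with neither. By position, the median GC was 37.2% in border stretches, 36.5% in inner stretches and 37.0% in whole LADs.

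Coding genes, in contrast, were more frequent than in the LADs that both methods called. The windows held 478 coding gene starts, or 4.17 per Mb, compared with 1.49 per Mb where both methods called, 2.96 per Mb with cTSA-seq alone, 10.2 per Mb with neither and 6.62 per Mb over all windows. A coding gene started in 28.9% of them and in 11.8% of the windows called by both. Without the 61 olfactory receptor genes the density was 3.64 per Mb, against 1.39 per Mb for both methods. Long non-coding RNA genes were at 4.15 per Mb, against 3.19 per Mb for both methods. Their density was 6.01 per Mb with cTSA-seq alone, 7.88 per Mb with neither and 6.12 per Mb over all windows. Border stretches had 3.47 and inner stretches 4.29 coding genes per Mb, and inner stretches held 0 olfactory receptors. The density of 10.6 per Mb in whole LADs fell to 1.6 per Mb without olfactory receptors.

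The higher gene density was also present inside the same LADs. In the 79 LADs with inner stretches, those stretches had 4.29 coding genes per Mb and the windows called by both methods had 1.61 per Mb, at median GC contents of 36.5 and 36.2%. In the 161 LADs with border stretches, the values were 3.47 and 1.64 per Mb, at 37.2 and 36.3% GC. The medians of CpG in promoters differed, although their ranges between quartiles overlapped, with a median of 14.0 CpG (quartiles 3.0 and 20) in the 250 bases before the start of the 417 genes other than olfactory receptors, 7.0 (quartiles 2.0 and 17.0) for the 1292 such genes in windows called by both and 15.0 (5.0 and 24.0) for the 17139 called by neither. Within the windows missed by cTSA-seq, the median was 15.0 for 233 genes of inner stretches, 11.0 for 176 genes of border stretches and 1.0 for the 61 olfactory receptors. These values come from gene annotation and sequence, and whether the genes were expressed in K562 was not analysed here.

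**Figure D3:**
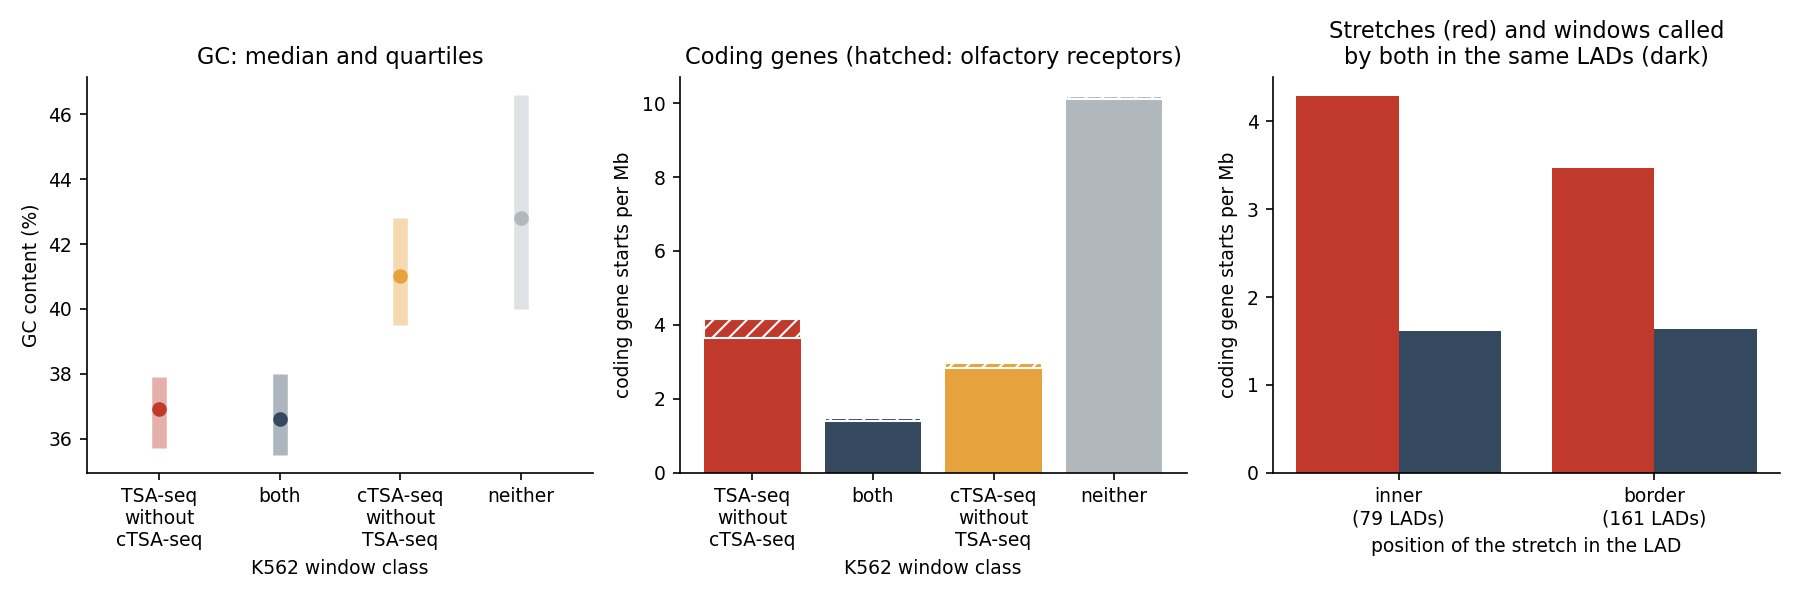
Left, median (point) and quartiles (bar) of GC content in % by K562 window class; middle, coding gene starts per Mb with olfactory receptors hatched; right, coding gene starts per Mb in inner and border stretches (red) and in windows called by both methods in the same LADs (dark). GC is similar in the red and dark classes (36.9 and 36.6%), while gene density is 4.17 and 1.49 per Mb.

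Of gene families known for clustering or tissue-restricted expression, olfactory receptors were well represented. With 61 of 415, 14.7% of them started in these windows, compared with 2.38% of all 20098 coding genes. The first by position were OR2B11, OR2C3, OR2G2 and OR2G3, and 45 of the 61 were in the single LAD at the end of chromosome 1. Beta-defensins, antimicrobial peptides of epithelia, were represented by DEFB114, DEFB113 and DEFB110, 3 of 40. Zinc finger genes were represented by ZNF474, ZNF804B and ZNF189 (3 of 515), protocadherins by PCDH9 (1 of 65), and serpins by the neuroserpin gene SERPINI1 (1 of 35). None of 152 keratin and keratin-associated genes, 24 taste receptors, 19 interferons, 76 cancer-testis genes, 22 UDP-glucuronosyltransferases, 95 ribosomal protein genes, 10 globins and 629 immunoglobulin and T-cell receptor segments started there.

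The 10 longest genes with at least 80% of their length in the windows were PCDH9 (928 kb), TENM1 (828 kb), PRKD1 (615 kb), LRRC7 (584 kb), UTRN (568 kb), TMEM117 (554 kb), ARHGAP24 (528 kb), MBD5 (496 kb), PTH2R (495 kb) and HMCN1 (457 kb). PRKD1 is a protein kinase, LRRC7 a scaffold of the postsynaptic density, UTRN the dystrophin-related utrophin, ARHGAP24 a GTPase-activating protein, PTH2R a parathyroid hormone receptor and HMCN1 an extracellular matrix protein. In total, 423 coding genes had 80% or more of their length in the windows. TENM1, UTRN and PTH2R started outside, in windows called by neither method.

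In HCT116 cells these windows were called about as often as an average window and less often than the other TSA-seq LAD windows of K562. Every HCT116 list came from cTSA-seq, and cTSA-seq calls in K562 also set these windows apart from the other TSA-seq LAD windows. The comparison of these classes therefore cannot tell the method from the cell line. In the bulk list 279 of 1146 (24.3%) were called, compared with 27.0% of all 30376 windows, 46.9% of those called by both K562 methods, 51.9% of those called by cTSA-seq alone and 12.0% of those called by neither. With 1000000 cells the share was 22.7%, where 21.2% of all windows and 46.7% of those with both K562 calls were called. With 200000 cells it was 24.3%, compared with 21.9% of all windows and 48.6% for both, and with 50000 cells 23.7%, compared with 22.7% and 48.3%. Across the 3 cell numbers the share thus lay between 22.7 and 24.3%.

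The cell cycle lists gave similar values, except for 90m G1. In asynchronous G1 cells 20.2% of the windows were called, where the share of all windows was 20.4% and that of windows with both K562 calls 42.9%. In S phase the shares were 22.2, 22.5 and 48.5%, and in G2 20.2, 20.2 and 44.3%, in the same order. In 180m G1 cells 23.5% were called, compared with 20.7% of all windows and 47.3% for both. In 90m G1 cells 6.46% were called, below the 17.1% of all windows, the 13.7% for both and the 17.5% of windows that neither K562 method called. The 74 windows called in 90m G1 lay toward chromosome ends, at a median distance of 15300 kb from the end, and 67.6% of them were within 20000 kb of it. The 1072 windows not called had a median distance of 50600 kb, with 10.4% within 20000 kb. This position was that of the 90m G1 list as a whole, since 76.1% of all its 5199 windows and 70.6% of its windows with both K562 calls were within 20000 kb of a chromosome end. Among windows not called in 90m G1, 20.9% of all windows and 11.9% of those with both K562 calls were within that distance. The windows missed by cTSA-seq thus lay less often near chromosome ends than either. The shares called in 90m G1 were not compared at equal distance from the ends. Chromosomes 1 and 3 held 17 and 14 of the 74.

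**Figure D4:**
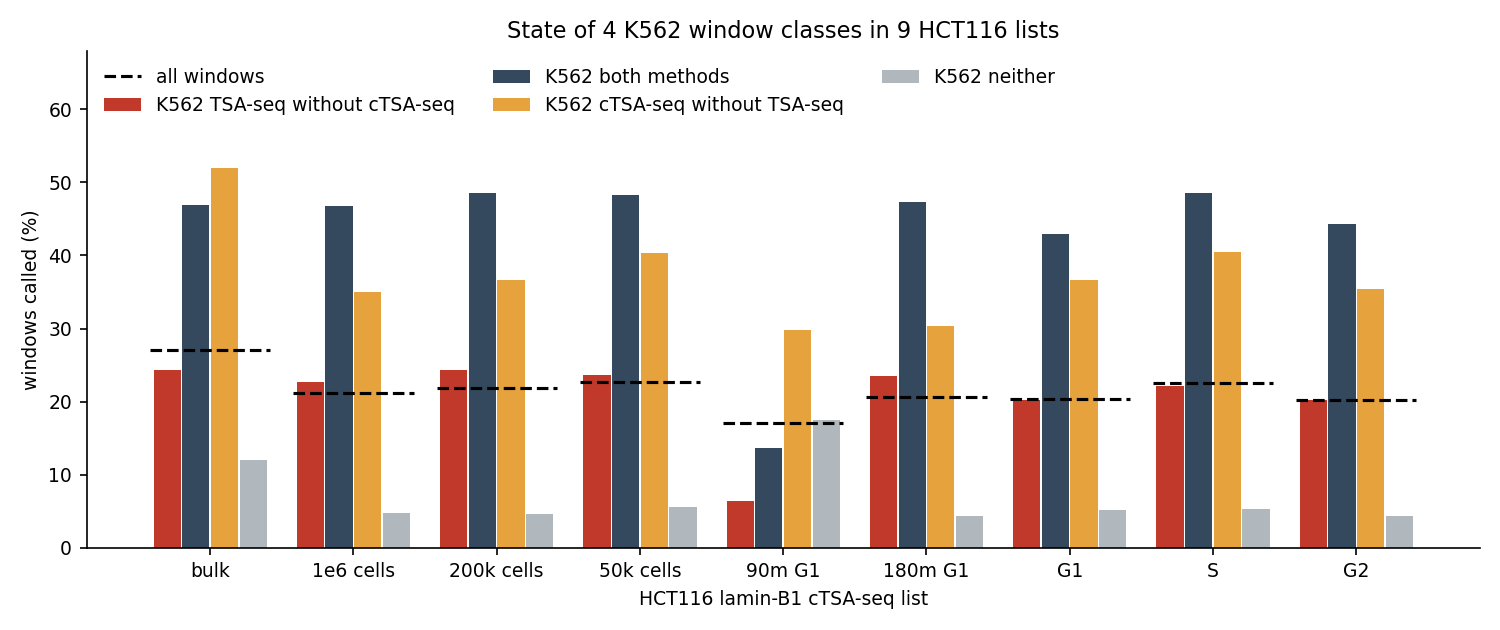
Percentage of windows called in each of 9 HCT116 lists (horizontal axis) for the 4 K562 window classes (bars), with the level of all windows as dashed lines. The red bars lie near the dashed lines, between 20.2 and 24.3%, in 8 lists and at 6.46% in 90m G1, and below the dark bars of windows called by both methods throughout.

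The state over all 9 HCT116 lists was closer to that of all windows than to that of windows with both K562 calls. A larger share of the windows missed by cTSA-seq than of all windows was in no list. Windows over 50% gaps, which stay in these shares, numbered 1947 among all windows and 5 among the windows missed by cTSA-seq. The level of all windows without them was not calculated. None of the lists contained 788 of the windows missed by cTSA-seq (68.8%), compared with 61.1% of all windows, 42.2% of those called by both K562 methods, 37.0% called by cTSA-seq alone and 75.1% called by neither. The state was the same in all 9 lists, called or not called, for 72.4% of them and for 65.8% of all windows. At least 7 lists contained 228 (19.9%), compared with 18.2% of all windows and 42.2% for both, and the bulk, G1, S and G2 lists together contained 216 (18.8%), compared with 17.7% and 40.5%. Of the 224 stretches with 2 or more windows, 48 were called whole in bulk, 165 had no window called and 11 had part of their windows called. In 213 of all 327 stretches (65.1%) no window was in any list. Runs of other windows were not counted in this way, so these counts of stretches have no general level beside them. The shares in bulk were 22.1% in border stretches, 22.8% in inner stretches and 66.0% in whole LADs.

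The lower share in HCT116 was also seen when windows of similar GC, position or LAD were set beside each other. In GC classes of 1 percentage point from 34 to 40%, and below 34%, between 19.8 and 30.0% of the windows missed by cTSA-seq were called in bulk, compared with 31.9 to 60.6% of windows with both calls and 7.79 to 16.9% with neither. The difference between missed windows and windows with both calls was not even over GC. Below 34% GC their shares were close, at 28.2 and 31.9%. From 39 to 40% GC they were 22.5 and 60.6%, and above 40% GC 36.7 and 65.6%. At LAD ends 24.5% were called, against 47.1% for both, and across the classes of distance up to 900 kb the ranges were 16.1 to 30.4% and 47.1 to 52.4%. Among the 194 LADs that held both kinds of window, the share in bulk was lower for the windows missed by cTSA-seq in 62, higher in 15, 0 for both in 85 and 100% for both in 32. In 45 of the 62 none of the missed windows was called although others in the LAD were. Gene-containing windows were called less often in both classes: 14.2% of missed windows with a coding gene start and 28.5% without one were called in bulk, against 34.3 and 48.6% for windows with both calls. What accounts for the difference between the classes was not tested.

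Coding genes that start in these windows were outside the HCT116 lists about as often as coding genes in general. With olfactory receptors left out, they were outside the lists more often. Of the 478 genes, 358 (74.9%) started in a window that no list contained, compared with 75.2% of all coding genes, 52.7% of genes in windows called by both K562 methods, 47.4% with cTSA-seq alone and 78.4% with neither. Leaving out olfactory receptors, it was 351 of 417 (84.2%), compared with 75.9% of all such genes, 55.0% with both methods, 49.5% with cTSA-seq alone and 78.6% with neither. All 43 olfactory receptors that started in windows called in all 9 lists lay in the single LAD at the end of chromosome 1. The longest genes starting in no list were PCDH9, HDAC9, the transcription factor gene ZBTB20, LRRC7, ZNF804B, KCNMB2, SLC4A10, TMEM117, the axon guidance gene SEMA3A and ARHGAP24. The start was called in bulk, G1, S and G2 for 67 genes, the longest being ADGRB3, NALF1, PRKD1, NCAM2, the glutamate receptor gene GRIK1, TUSC3, the angiopoietin gene ANGPT1, the calcium channel gene TRPC4, KLHL4 and NPFFR2.

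The windows were spread over 22 of 23 chromosomes, and chromosome 22 had no TSA-seq LAD. They made up 23.4% of the TSA-seq windows of chromosome 21, 17.8% of chromosome 6, 17.2% of chromosome 7 and 16.9% of chromosome 1, but 2.56% on chromosome 15 and 2.15% on chromosome 16. The 5 chromosomes with the most held 597 of them (52.1%). The share called in bulk HCT116 cells differed widely between chromosomes. Among chromosomes with at least 20 windows it ran from 0 of 51 on chromosome 12 to 28 of 29 on chromosome 21. It was lower than for windows with both K562 calls on 17 of 22 chromosomes, and on 13 of the 15 chromosomes with at least 20 windows. Chromosome 14 (60.0 and 45.0%) and chromosome 21 (96.6 and 80.0%) went the other way. Weighting the windows with both calls to the chromosomes of the missed windows, a calculation added after the values were seen, lowered their share in bulk from 46.9 to 42.9% and in G1 from 42.9 to 38.7%.

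**Figure D5:**
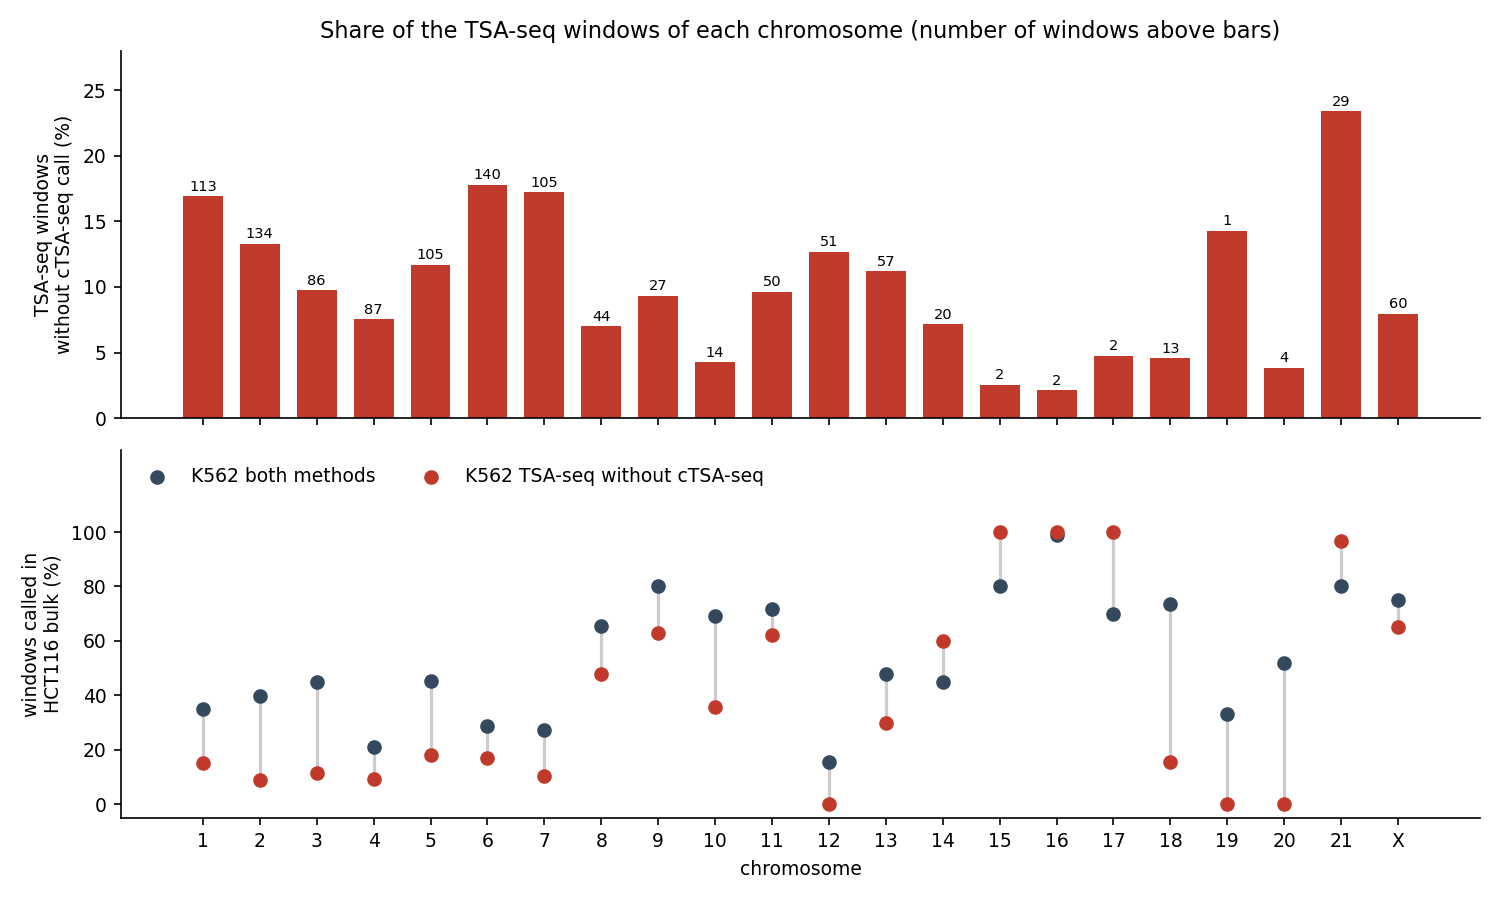
Upper panel, percentage of the TSA-seq LAD windows of each chromosome that had no cTSA-seq call, with their number above the bar; lower panel, percentage called in bulk HCT116 cells of these windows (red) and of windows called by both K562 methods (dark). Chromosome 21 has the highest share (23.4%), and the red point lies below the dark one on 17 of 22 chromosomes.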

How the data were processed

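K562 and HCT116 cells were profiled by lamin-B1 cTSA-seq and compared with published TSA-seq data of K562. The authors aligned reads to hg19, removed duplicates, scaled pull-down and input to the same total, took their ratio in 100 kb windows and called LADs with a 3-state Hidden Markov Model. What the authors deposited are the starts and ends of regions in bp, and the methods describe calls of replicates as intersected. The lists for 90m and 180m G1 are not named consensus, and the consensus list for 1000000 cells has 1 pull-down in the labels.

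A window was inside a list when the list covered it whole, and no K562 list covered a window in part. The authors' list of LADs shared by both methods was identical to the windows called by both, with 0 windows that differed. GC and CpG were counted in hg19, and 5 of the chosen windows were over 50% gaps. Genes were placed by their start in GENCODE release 44 mapped to hg19. The printed promoters came from RefSeq, and promoter CpG was counted in hg19 before GENCODE starts. Calculations used Python 3.11.15, numpy 2.4.6 and pandas 2.3.3, and the window functions were tested on simulated regions.

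Named genes and regions were the 10 longest stretches with their coding genes, the 5 longest inner stretches, LADs without any cTSA-seq window, the 10 longest genes with 80% of their length in the windows, the 10 longest that start in bulk, G1, S and G2 calls or in no list, and the first 4 of each gene family. Windows, stretches and gene lists were chosen with earlier results of these data known. No test was run, since each list is 1 merged call set and neighbouring windows are not independent. Mouse, hTERT-RPE1, SLAM-seq and the TSA libraries of this series were not used here, and some named genes and 1 chosen sequence are not reported here.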

Additional observations from a re-analysis of the deposited data

How the results depend on the processing

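Of 57 recalculations other than leaving out chromosomes, 14 moved away from the reported value. Moved means outside a 95% interval for shares and gene densities, beyond 1.5-fold for counts, and beyond the standard deviation over windows for GC. The intervals treat windows, stretches and genes as independent, which neighbouring windows are not, so they serve only as a yardstick. Widening the K562 cTSA-seq regions by 1 window at each end left 719 windows in 200 stretches, since it removes windows beside a call by construction. Among stretches of at least 200 kb, 45.09% were at a border. Widening the HCT116 regions by 1 window raised the share called to 27.57% in bulk, 25.83% with 1000000 cells, 28.62% with 200000 cells, 27.57% with 50000 cells, 26.96% after 180 min, 22.86% for G1, 25.74% for S and 23.3% for G2. Widening cannot lower the share of any class of windows. The shares of all windows under widened regions were not calculated, so these values cannot be set beside the levels given above. Coding genes per Mb were 3.691 when 80% of a gene had to lie in the windows and 3.639 without olfactory receptors, an alternative chosen after seeing the data, and genes of all types gave 14.2 per Mb.

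Leaving out each chromosome in turn, the share in bulk ran from 22.1 to 26.38% for these windows and from 44.65 to 50.29% for windows with both calls, and their share of TSA-seq windows from 10.42 to 11.4%. No paired analysis was possible because the lists are merged over replicates and no result comes from a test. Without signal, depth or replicate lists, windows just short of a cTSA-seq call cannot be told from windows far below it.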

Other observations

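Of the inner stretches, the 5 longest also included 1000 kb on chromosome 5 (88000001-89000000) with the start of MEF2C, a transcription factor of muscle, neurons and blood cells. It was in no HCT116 list. An inner stretch of the same length on chromosome 8 (107600001-108600000) had 70.0% of its windows in the bulk HCT116 list and contained all of ANGPT1. The longest stretches called whole in all 9 HCT116 lists were 400 kb long, on chromosome 5 (163600001-164000000) and chromosome 8 (116300001-116700000), and held 0 coding gene starts each. A border stretch of 1100 kb on chromosome 6 (146000001-147100000) with EPM2A, FBXO30, SHPRH, RAB32 and ADGB had 63.6% of its windows in the 180m G1 list and none in the other 8 lists.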
